A study of Rattus norvegicus with 8 samples.

Results

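The Hox cluster miRNAs described here are the mature 5p products of the miR-10 and miR-196 genes, which lie inside the 4 mammalian Hox gene clusters. They were taken by name from the deposited small RNA table as rno-miR-10a-5p, rno-miR-10b-5p, rno-miR-196a-5p, rno-miR-196b-5p and rno-miR-196c-5p, 5 of 415 rat mature names and of 1273 mature names in all. Each had 1 row among the 1512 deposited rows. The libraries came from exosomes, the small vesicles that cells release, of rat nucleus pulposus progenitor cells (NPPC, 4 libraries) and of rat nucleus pulposus cells (NPC, 4 libraries), the cells of the soft core of the intervertebral disc. The labels give no strain, age, sex, treatment or culture history for either group, and they do not say whether libraries came from separate animals or cultures, so each p-value reflects the spread of libraries alone, which may be technical. No marker miRNA of nucleus pulposus cells was fixed for the comparison, so the labelled cell type was not checked.

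Hox genes are expressed in nested domains along the head to tail axis, and cells of the trunk skeleton often keep the Hox code of the level at which they formed. The miR-10 genes sit beside the Hox4 genes, and the miR-196 genes sit towards the 5′ end of the clusters, near the Hox9 genes, whose domains begin further back. Known targets include Hoxd10 for miR-10b and Hoxb8 for miR-196, both established in mammals. The comparison made is that of the levels of these miRNAs in NPPC exosomes with those in NPC exosomes.

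The 5 rows carried only 2 seeds, the stretch from base 2 to base 8 that pairs with targets. The sequence listed for each row is given 5′ to 3′, as DNA letters as in the deposited table, with the seed and base 12 in capitals because these are the bases that group and separate the members:
rno-miR-10a-5p: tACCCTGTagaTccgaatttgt
rno-miR-10b-5p: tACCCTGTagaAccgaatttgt
rno-miR-196a-5p: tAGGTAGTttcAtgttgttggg
rno-miR-196b-5p: tAGGTAGTttcCtgttgttgg
rno-miR-196c-5p: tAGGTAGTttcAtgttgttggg

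Counted from 1 at the 5′ end, the miR-10a and miR-10b rows differed only by T12A. The miR-196a and miR-196b rows differed by A12C and by the last base of miR-196a, which the miR-196b row lacked. The miR-196a and miR-196c rows held the same letters.

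For miR-10b and miR-196c the sequence listed for the row was not the annotated one. The annotated forms, which the deposited table and RefSeq (GRCr8) give alike for 5 of 5 members, are shown here with the seed of each in capitals, and with base 12 of miR-196c also in capitals:
miR-10b-5p annotated: cCCTGTAGaaccgaatttgtgt
miR-196c-5p annotated: tAGGTAGTttcGtgttgttggg

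The miR-10b row began 2 bases before the annotated start, which gave it the seed of miR-10a in place of its annotated seed. The seed ACCCTGT occurred in 2 of the 1512 rows, those of miR-10a and miR-10b, and the annotated miR-10b seed CCTGTAG occurred in 0 rows. The miR-196c row carried the substitution G12A against its annotated form, and 0 rows held the annotated sequence. The miR-196a sequence stood in 2 rows, its own and that of miR-196c, and their counts were equal in 8 of 8 libraries. The values of miR-196a and miR-196c are thus 1 measurement divided between 2 names, and are called here the miR-196a/c sequence when added together. The table lists 1 sequence per row. The sources used here do not say whether reads with other ends, or with the annotated base 12 of miR-196c, were counted in it.

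In the deposited table, whose genome build is not named, the hairpins lay on chromosome 10 from 84165945 to 84166063 (miR-10a, plus strand), chromosome 3 from 61647974 to 61648086 (miR-10b, plus strand), chromosome 7 from 144584235 to 144584344 (miR-196a, plus strand), chromosome 4 from 82199056 to 82199140 (miR-196b, minus strand) and chromosome 10 from 84113565 to 84113666 (miR-196c, plus strand). In the RefSeq gene order of GRCr8, Mir10a lies between Hoxb5 and Hoxb4, Mir10b inside the span of Hoxd4, Mir196a between Hoxc10 and Hoxc9, Mir196b between Hoxa9 and Hoxa10, and Mir196c between Hoxb13 and Hoxb9. The members thus cover all 4 clusters, with miR-10a and miR-196c from the Hoxb cluster.

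miR-10a was the most abundant member in each of the 8 libraries. In NPPC exosomes it stood at 12412, 12617, 12909 and 13486 CPM (counts scaled to a common library size by the trimmed mean of M values, TMM) in replicates 1 to 4. In NPC exosomes it stood at 2917, 11902, 15874 and 12471 CPM in replicates 1 to 4. The NPPC libraries lay close together inside the NPC range, while NPC replicate 1 was far below every other library. By group mean it ranked 19 of 415 rat names in NPPC and 19 in NPC exosomes.

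miR-10b had the same shape at a lower level. It stood at 2682, 2506, 2597 and 2860 CPM in NPPC replicates 1 to 4, and at 616, 2114, 3101 and 2442 CPM in NPC replicates 1 to 4. The groups overlapped, with NPC replicate 1 lowest and NPC replicate 3 highest of the 8 libraries. Its rank was 44 in NPPC and 51 in NPC exosomes.

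The miR-196a/c sequence reached 3382, 4746, 5136 and 5123 CPM in NPPC replicates 1 to 4. In NPC replicates 1 to 4 it reached 839, 3757, 4215 and 3761 CPM. NPPC replicates 2 to 4 lay above all NPC libraries, NPPC replicate 1 lay below NPC replicates 2 to 4, and NPC replicate 1 was again lowest. Split between its 2 names, each of miR-196a and miR-196c had 2298 ± 415 CPM in NPPC and 1571 ± 775 CPM in NPC exosomes (SD, n = 4 each).

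miR-196b, from the Hoxa cluster, was the least abundant. It had 880, 984, 1089 and 1065 CPM in NPPC replicates 1 to 4, and 340, 1215, 860 and 892 CPM in NPC replicates 1 to 4. The highest and the lowest of the 8 libraries were both NPC libraries.

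**Figure D1:**
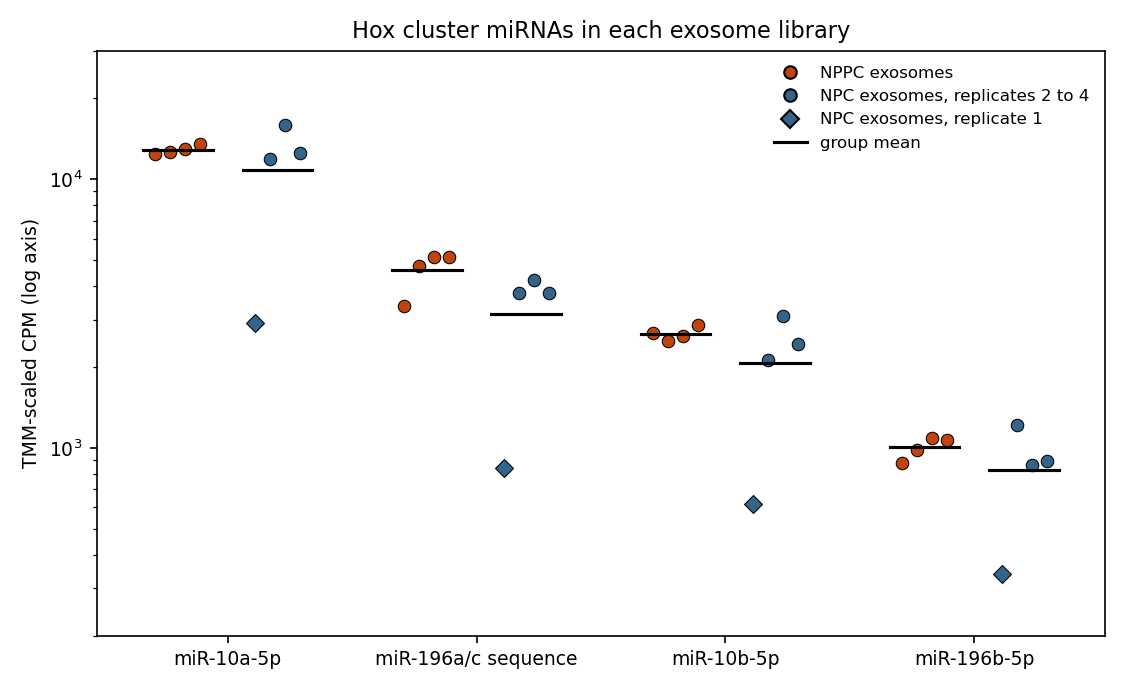
TMM-scaled CPM on a log axis for miR-10a-5p, the miR-196a/c sequence, miR-10b-5p and miR-196b-5p. Each point is 1 library, NPPC left of NPC within each miRNA, diamonds mark NPC replicate 1 and lines are group means. NPC replicate 1 is the lowest library for all 4, for example 2917 CPM of miR-10a-5p against 11902 to 15874 CPM in the other NPC libraries.

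The order of the levels was the same in 8 of 8 libraries. miR-10a lay above the miR-196a/c sequence, which lay above miR-10b, which lay above miR-196b. By the single deposited row, miR-196a stood below miR-10b in 8 of 8 libraries, so its place depends on whether its divided reads are added. Levels of different miRNAs also depend on how well each sequence is captured in library preparation, so the order is one of reads.

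The 5 names together took 1.96% ± 0.0203 of NPPC counts and 1.66% ± 0.598 of NPC counts (SD, n = 4 each). NPC replicate 1 gave 0.772% (Wilson 95% interval 0.742% to 0.802%, counting error only), and the other NPC libraries 1.86% to 2.10%. The make-up of this share was not tested. miR-10a made up 61.0% ± 2.15 of the reads of the 5 names in NPPC and 63.6% ± 1.79 in NPC exosomes, and miR-10b made up 12.6% ± 0.883 in NPPC and 12.4% ± 0.877 in NPC exosomes (SD, n = 4 each). The miR-196a/c sequence made up 21.7% ± 2.82 in NPPC and 18.6% ± 1.09 in NPC exosomes, and miR-196b made up 4.75% ± 0.193 in NPPC and 5.43% ± 1.66 in NPC exosomes (SD, n = 4 each).

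Between the groups, 0 of the 5 members passed the edgeR quasi-likelihood test at a Benjamini-Hochberg adjusted p under 0.05, where 0.256% of the 390 mature names tested passed (1 name, miR-146a-5p). With any library other than NPC replicate 1 left out, 0 names passed by edgeR, and 23 to 65 had an unadjusted p under 0.05. With the replicate number as a block, 0 names passed by edgeR and 48 had an unadjusted p under 0.05. With all libraries and no block, 0 members had such a p, against 10.5% of all names, and 0 members had groups that did not overlap, against 10.8%. miR-10a averaged 12856 ± 467 CPM in NPPC and 10791 ± 5534 CPM in NPC exosomes (SD, n = 4 each), a log2 fold change of 0.25 ± 0.42 (SE) with an edgeR adjusted p of 0.788. Its 95% interval ran from -0.72 to 1.22. For miR-10b the means were 2661 ± 151 CPM in NPPC and 2068 ± 1051 CPM in NPC exosomes (SD, n = 4 each), and the log2 fold change was 0.36 ± 0.41 (SE, 95% interval -0.58 to 1.30, edgeR adjusted p = 0.679).

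For miR-196a, and by identity miR-196c, the log2 fold change was 0.55 ± 0.44 (SE, 95% interval -0.46 to 1.56, edgeR adjusted p = 0.596). For miR-196b, with 1005 ± 94.5 CPM in NPPC and 827 ± 362 CPM in NPC exosomes (SD, n = 4 each), it was 0.28 ± 0.34 (SE, 95% interval -0.50 to 1.06, edgeR adjusted p = 0.708). The median over the 5 members was 0.36 and that over all 390 names was -0.038. In the members' median the divided reads of miR-196a and miR-196c enter under both names. These intervals hold changes of more than 2-fold in NPPC exosomes, so the test does not show that the levels were alike. Between same-numbered libraries, miR-196a and miR-196c were higher in NPPC in 4 of 4 pairs, and miR-10a, miR-10b and miR-196b in 3 of 4. With the replicate number as a block, the log2 fold changes were 0.46 for miR-10a, 0.55 for miR-10b, 0.75 for miR-196a and miR-196c (unadjusted p = 0.0782), and 0.41 for miR-196b, with edgeR adjusted p between 0.373 and 0.575.

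The estimates depended on NPC replicate 1. Without it the log2 fold changes were -0.051 for miR-10a, 0.071 for miR-10b, 0.24 for miR-196a and miR-196c, and 0.033 for miR-196b. The 95% intervals then ran from -0.31 to 0.21 for miR-10a, -0.25 to 0.39 for miR-10b, -0.13 to 0.62 for miR-196a and -0.33 to 0.40 for miR-196b. Their edgeR adjusted p lay between 0.400 and 0.928, and 0 members had an unadjusted p under 0.05. Of the 427 names tested without that library, 0.234% passed and 20.1% had an unadjusted p under 0.05. The members' median, again with miR-196a and miR-196c both entered, was 0.071 and the median of all names was -0.051.

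**Figure D2:**
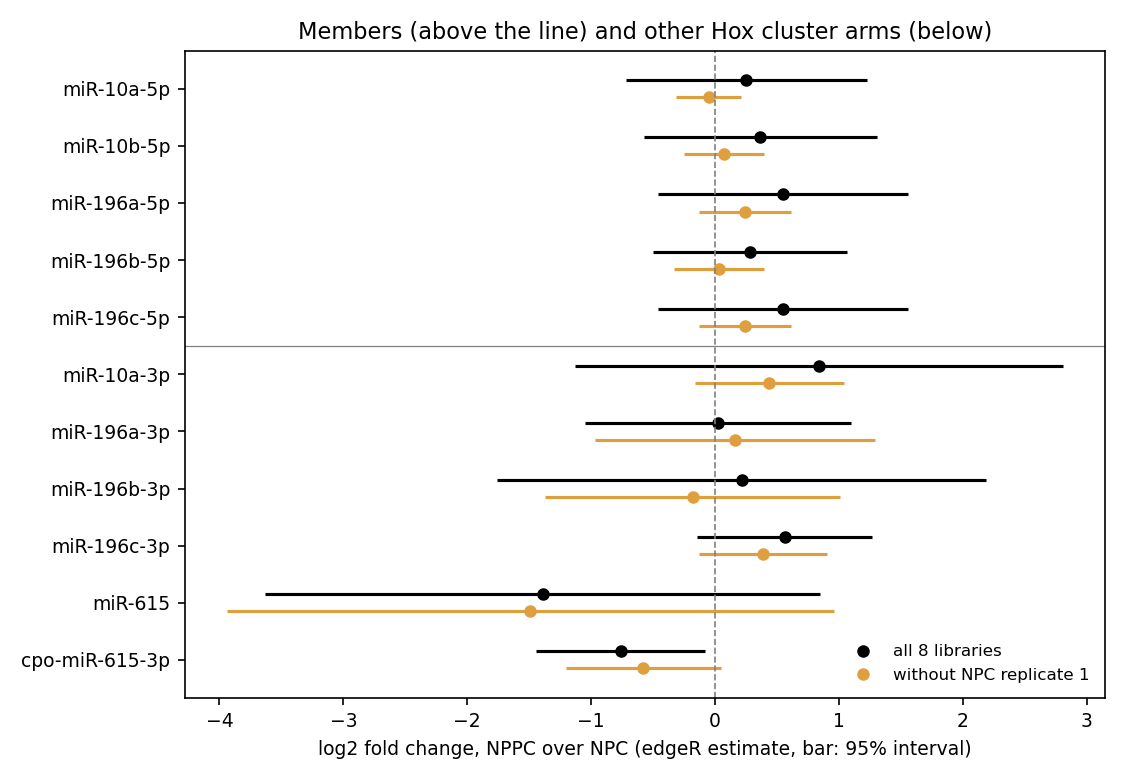
edgeR log2 fold changes of NPPC over NPC exosomes with 95% intervals for the 5 members (above the line) and 6 other Hox cluster products (below it), from all 8 libraries (black) and without NPC replicate 1 (orange). Every interval of a member includes 0 in both fits, and the intervals of the members are narrower without that library.

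NPC replicate 1 held 21.7% of the mean level of the other NPC libraries for miR-10a, 24.2% for miR-10b, 21.5% for the miR-196a/c sequence and 34.4% for miR-196b. On the log2 scale these gaps were -2.19, -2.03, -2.21 and -1.52. In that library the gap of a miRNA moved with the GC content of its sequence. The members have 40.9% GC (miR-196b 42.9%), and all 31 other rat names in that GC range with a mean of at least 100 CPM were also below the other NPC libraries there, from -5.88 to -0.048 with a median of -1.82. The 101 rat names with more GC had a median gap of 0.19, and 40 of them were below 0. With a correction for GC content the log2 fold changes were -0.20 for miR-10a, -0.11 for miR-10b, 0.085 for miR-196a and miR-196c, and -0.11 for miR-196b, with edgeR adjusted p between 0.687 and 0.901.

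**Figure D3:**
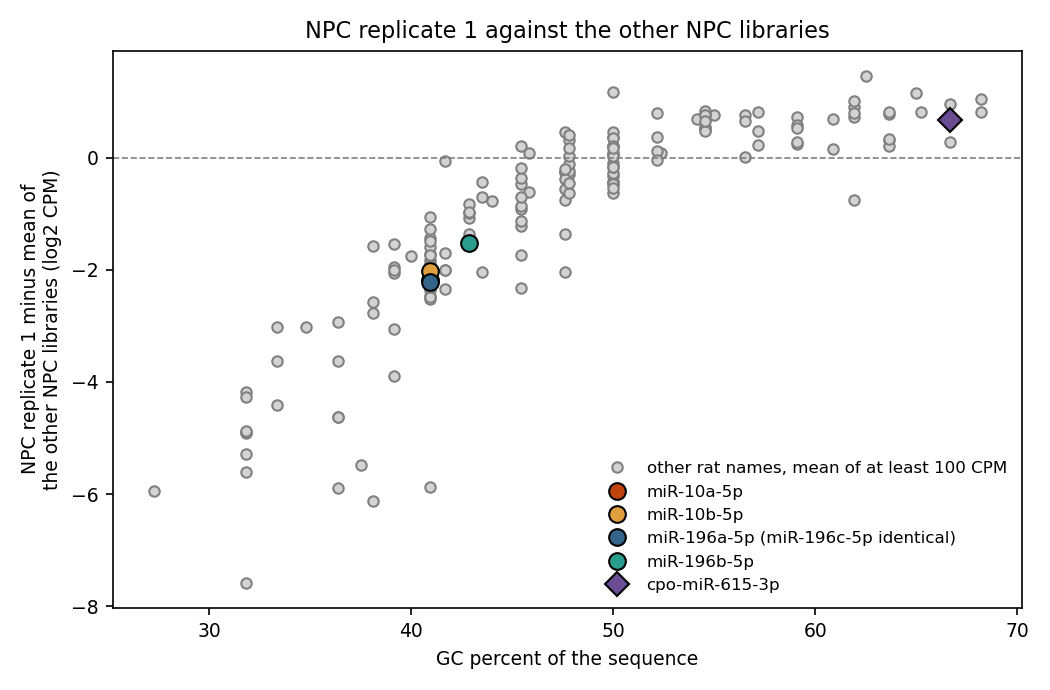
Difference in log2 CPM between NPC replicate 1 and the mean of the other NPC libraries against the GC percent of the sequence. Grey points are rat names with a mean of at least 100 CPM and coloured points are Hox cluster miRNAs, of which miR-10a-5p lies under the points at 40.9% GC. The members lie at -2.21 to -1.52 among other names of like GC, and miR-615-3p with 66.7% GC lies at 0.67.

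Ratios of members within a library need no scaling between libraries. The ratio of miR-10b to miR-10a was 0.216, 0.199, 0.201 and 0.212 in NPPC replicates 1 to 4, and 0.211, 0.178, 0.195 and 0.196 in NPC replicates 1 to 4. It was the steadiest of the 3 ratios tested, with an SD of 0.090 on the log2 scale over the 8 libraries, where miR-10a alone had 0.77. NPC replicate 1, low in both miRNAs, lay among the other libraries in their ratio. The difference of NPPC minus NPC exosomes was 0.087 on the log2 scale, and the two-sided exact permutation test gave p = 0.143 (Benjamini-Hochberg adjusted over 3 ratios, 0.214). The ratio was higher in NPPC in 4 of 4 same-numbered pairs, where the paired exact permutation p was 0.125, the smallest that 4 pairs allow. Without NPC replicate 2 the difference was 0.043 (exact permutation p = 0.343, adjusted 0.371), and without NPC replicate 1 it was 0.13 (exact permutation p = 0.0571, adjusted 0.171).

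The ratio of miR-196a to miR-10a, of a miRNA near the Hox9 genes to a miRNA near the Hox4 genes, was higher in 3 of 4 NPPC libraries than in any NPC library. This ratio took the single miR-196a row, without the equal reads listed under miR-196c, so its level depends on that division. It was 0.136, 0.188, 0.199 and 0.190 in NPPC replicates 1 to 4, and 0.144, 0.158, 0.133 and 0.151 in NPC replicates 1 to 4. NPPC replicates 2 to 4 lay above all NPC libraries and NPPC replicate 1 lay within their range. Between same-numbered libraries the ratio was higher in NPPC in 3 of 4 pairs (paired exact permutation p = 0.25). The difference on the log2 scale was 0.27, and the two-sided exact permutation test gave p = 0.114 (adjusted 0.214). Without NPPC replicate 1 it was 0.40, with an exact permutation p of 0.0286 (adjusted 0.0857), so it was not called either way. That p is the smallest that the 35 arrangements without that library allow. After adjustment over 3 ratios a ratio could not pass alone, so the missing call does not show that the ratios were alike.

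The ratio of miR-196b to miR-196a, again by the single miR-196a row, was 0.520, 0.415, 0.424 and 0.416 in NPPC replicates 1 to 4. It was 0.808, 0.646, 0.408 and 0.474 in NPC replicates 1 to 4, a wider spread that covers all NPPC values. Between same-numbered libraries it was higher in NPPC in 1 of 4 pairs (paired exact permutation p = 0.25). The difference on the log2 scale was -0.35, and the two-sided exact permutation test gave p = 0.257 (adjusted 0.257). Without NPC replicate 1 it was -0.18, with an exact permutation p of 0.429. The smallest p that the 70 arrangements of 8 libraries allow is 0.0286, so a ratio could not pass alone after adjustment over 3 ratios. The ratio of miR-196c to miR-196a was not tested, since equal rows fix it.

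**Figure D4:**
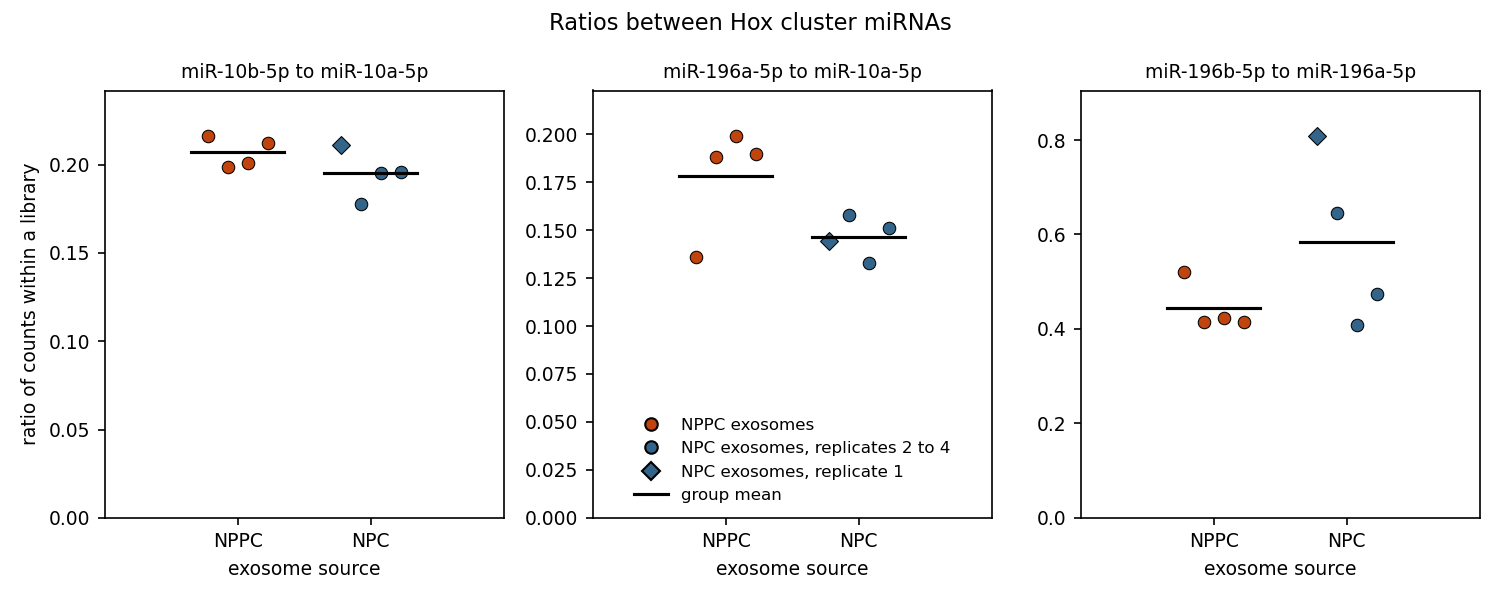
Ratios of counts within each library for miR-10b to miR-10a, miR-196a to miR-10a and miR-196b to miR-196a, with axes from 0. miR-196a enters by its single row, without the equal reads listed under miR-196c. Each point is 1 library, NPPC left of NPC, the diamond is NPC replicate 1 and lines are group means. In the middle panel NPPC replicates 2 to 4 (0.188 to 0.199) lie above the NPC libraries (0.133 to 0.158) and NPPC replicate 1 is at 0.136.

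The 3p arms, the partner strands that are usually discarded, tell the miR-196a and miR-196c hairpins apart, since their letters differ. The 3p arm of miR-196c, from the Hoxb cluster, had 84, 112, 157 and 130 counts in NPPC replicates 1 to 4, and 24, 42, 68 and 39 counts in NPC replicates 1 to 4. The 3p arm of miR-196a, from the Hoxc cluster, had 50, 15, 43 and 33 counts in NPPC replicates 1 to 4, and 23, 18, 19 and 16 counts in NPC replicates 1 to 4. These counts are not scaled, and library totals were larger in NPPC exosomes. Scaled, miR-196a-3p had 34.4 ± 19.0 CPM in NPPC and 33.8 ± 6.02 CPM in NPC exosomes (SD, n = 4 each). Its log2 fold change was 0.023 ± 0.47 (SE, edgeR adjusted p = 0.980). The miR-196c arm was the larger in each library. It made up 77.3% ± 10.6 of both arms in NPPC and 67.5% ± 11.6 in NPC exosomes (SD, n = 4 each). Such low counts set wide errors, and how far a 3p arm stands for the output of its hairpin was not tested.

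Summed over the 8 libraries, 3p reads made up 0.672% of both arms for miR-10a, 0.397% for miR-10b, 1.60% for miR-196b, and 3.11% for miR-196a and miR-196c together. miR-10b-3p had 8, 14, 26 and 11 counts in NPPC replicates 1 to 4, and was listed at 0 in NPC replicates 1 to 3 and at 5 counts in NPC replicate 4. In CPM the groups overlapped, with NPC replicate 4 at 9.61 CPM and the NPPC libraries at 9.54 to 20.6 CPM. miR-10b-3p was too low to be tested.

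Among 8 names fixed as other arms and other miRNAs of the Hox clusters, 7 had a row and 6 were tested, with 0 higher and 0 lower at an edgeR adjusted p under 0.05. Their median log2 fold change was 0.12, and -0.0099 without NPC replicate 1. miR-196c-3p had 112 ± 9.40 CPM in NPPC and 75.8 ± 28.9 CPM in NPC exosomes (SD, n = 4 each), with a log2 fold change of 0.56 ± 0.31 (SE, edgeR adjusted p = 0.504). miR-10a-3p had 94.9 ± 25.3 CPM in NPPC and 53.1 ± 35.6 CPM in NPC exosomes (SD, n = 4 each), and 0.84 ± 0.86 (SE, edgeR adjusted p = 0.654). It was listed at 0 in NPC replicate 1, and without that library the log2 fold change was 0.44 (edgeR adjusted p = 0.367).

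The Hoxc cluster also holds Mir615, which RefSeq places inside the spans of Hoxc5 and Hoxc6. Its 3p arm, listed under a guinea pig name, was lower in the NPPC mean, though not past the adjusted threshold. It stood at 699, 573, 541 and 463 CPM in NPPC replicates 1 to 4, and at 1290, 837, 525 and 1211 CPM in NPC replicates 1 to 4. NPC replicate 3 lay inside the NPPC range and the other NPC libraries lay above it. The log2 fold change was -0.76 ± 0.30 (SE), with an edgeR adjusted p of 0.409 and an unadjusted p of 0.0325. Without NPC replicate 1, where it was 0.67 above the other NPC libraries, the log2 fold change was -0.58 (edgeR adjusted p = 0.273). The rat-named miR-615 had at most 15 counts in a library.

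Outside the clusters, both seeds have relatives of related sequence. miR-99a, of the miR-99 and miR-100 type, shares with miR-10a the middle of the molecule but not the seed. let-7b carries the 7 bases AGGTAGT of the miR-196 seed as well, at bases 3 to 9 in place of 2 to 8. miR-99a and let-7b, with their seeds in capitals, are shown as examples of the relation:
miR-99a-5p: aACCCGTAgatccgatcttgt
let-7b-5p: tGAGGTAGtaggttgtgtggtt

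miR-10a and miR-99a had 10 bases in a row in common, GTAGATCCGA, at bases 7 to 16 of miR-10a. The 3 miR-99 type relatives had a median log2 fold change of -0.16 and 0 of 3 passed by edgeR. miR-99a stood at 15120 ± 1253 CPM in NPPC and 16912 ± 2466 CPM in NPC exosomes (SD, n = 4 each). With 47.6% GC it stood in NPC replicate 1 at 15151 CPM, close to the 15382 to 20479 CPM of the other NPC libraries. miR-125a-5p and miR-125b-5p, which share transcripts with miR-99 and miR-100 genes, had -0.080 and 0.10, and 0 of 2 passed. The 9 names of let-7 and miR-98 had a median of 0.63, or 0.30 without NPC replicate 1, and 0 of 9 passed by edgeR, with adjusted p between 0.504 and 0.728.

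The miRNAs most like the members over the 8 libraries were found by the root mean square difference of log2 CPM, each centred on its own mean, among 166 other rat names with a mean of at least 100 CPM. For miR-10a the nearest was miR-10b, at 0.085, followed by miR-130a-3p at 0.088, miR-146b-5p at 0.14, miR-411-5p at 0.14 and miR-494-3p at 0.16, where the median name was at 0.72. For miR-10b the nearest was miR-130a-3p at 0.074, then miR-10a, miR-411-5p at 0.14, miR-30e-5p at 0.15 and miR-494-3p at 0.16. For miR-196a the nearest was miR-196c at 0, the same reads, then let-7c-5p at 0.099, let-7d-5p at 0.13, miR-26a-5p at 0.13 and let-7a-5p at 0.14. miR-196b was further off, ranking 30 for miR-10a and 32 for miR-196a. All of these names have between 40.9% and 47.6% GC, and they share libraries and depth. The members' gap in NPC replicate 1 is part of the pattern compared.

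Library totals lay between 819845 and 1416940 counts in NPPC and between 329011 and 681591 counts in NPC exosomes. The scaling factor of NPC replicate 1 was 1.64, and those of the other libraries were 0.872 to 1.01. Of 12 marker names of blood, liver and endothelium 11 had a row, and they summed to 813 to 2342 CPM in NPPC and 767 to 1702 CPM in NPC libraries, with 0 of 10 tested names passing by edgeR. In NPC replicate 1 miR-144-3p, miR-144-5p, miR-142-3p, miR-142-5p and the mouse-named miR-223-3p were at 0. miR-142-3p was also at 0 in other libraries of both groups. miR-451-5p, miR-122-5p, miR-126a-3p and miR-126a-5p were below the other NPC libraries there, and miR-150-5p lay within their range. miR-486, with 63.6% GC, stood there at 421 CPM, above the 141 to 313 CPM of the other NPC libraries. The part of such carry-over in the members' levels was not tested.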

How the data were processed

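Small RNA of exosomes was sequenced in 4 NPPC and 4 NPC libraries. Per the labels' protocols, a kit for exosome RNA was used, then Illumina's TruSeq chemistry for small RNA. The submitters' processing notes name CASAVA 1.8. Neither source names the aligner, the miRBase version or the build. Deposited by the authors were estimated counts per row, of which 82.3% of the values above 0 were whole within 1e-09, and a scaled signal, the deposited count times 1 factor per library. Low counts limit the precision of the 3p arms.

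Groups came from the sample titles. Counts were summed per mature name over the whole table, rounded, and tested with edgeR 4.0.16 in R 4.3.3 (TMM factors, filterByExpr, two-sided quasi-likelihood test, group as the only term, Benjamini-Hochberg over all 390 names). Within-library ratios used log2 with 0.5 added to each count and two-sided exact permutation tests. For the GC correction, log2 CPM of each name was centred on its mean over the libraries. A loess curve (span 0.75) of these values on GC percent was fitted in each library. The curves, centred over the libraries, were added to the offset for library size. A prior count of 2 entered log2 CPM. Sequences came from the deposited table and were compared with RefSeq. Scripts were tested on simulated data. Python 3.11.15 and matplotlib 3.10.9 drew the figures.

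Deviations of same-numbered NPPC and NPC libraries from their group means had positive correlations over names, of 0.565, 0.116, 0.366 and 0.243 for numbers 1 to 4. The pairing comes from these values and the shared numbers in the titles, since the labels do not say what a number marks. Such correlations were not computed for differently numbered libraries. The members, the lists, the tests and the rule for names (all members, list names with the highest CPM, and the 5 nearest names) were chosen with earlier results of these data known. The addition of miR-196a and miR-196c was chosen after their values were seen. Alternatives were other scalings, filters and tests, the pairing, rows as deposited, other sets of names, the GC correction and each library left out.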

Additional observations from a re-analysis of the deposited data

Results flagged for a closer look

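Dixon's criterion was applied to 24 sets of 4 libraries, and in 3 of them a single library stood apart. Chance gives about 1 in 20. miR-196a-5p, and with it miR-196c-5p, stood at 419.6 CPM in NPC replicate 1, against 1878 to 2108 CPM in NPC replicates 2 to 4. miR-10a-3p was listed at 0 CPM in NPC replicate 1, against 67.3 to 75.7 CPM in NPC replicates 2 to 4. The ratio of miR-196b-5p to miR-196a-5p was 0.520 in NPPC replicate 1, against 0.415 to 0.424 in the other NPPC libraries.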

How the results depend on the processing

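Over 24 alternative settings 0 members passed at an adjusted p under 0.05, and the lowest adjusted p of a member was 0.244. An unadjusted p under 0.05 occurred for miR-196a-5p and miR-196c-5p with no filter (log2 fold change 0.67, edgeR adjusted p = 0.269) and for miR-10a-5p with the GC correction and NPC replicate 1 left out (edgeR adjusted p = 0.244). miR-196a-5p and miR-196c-5p stayed positive in 24 of 24, with log2 fold changes from 0.023 to 0.80. The others turned negative with the GC correction (miR-10a-5p -0.20, miR-10b-5p -0.11, miR-196b-5p -0.11), with that correction and the replicate block (-0.19, -0.11, -0.0997) and with it and NPC replicate 1 left out (-0.25, -0.13, -0.16), the last added after the data were seen. The cause was not tested. With a library left out miR-10a-5p ran from -0.051 (without NPC replicate 1) to 0.57, miR-10b-5p from 0.071 to 0.70, miR-196a-5p from 0.24 to 0.80 and miR-196b-5p from 0.033 to 0.53. The ratio of miR-196a-5p to miR-10a-5p ran from 0.21 to 0.40, that of miR-10b-5p to miR-10a-5p from 0.043 to 0.13, and that of miR-196b-5p to miR-196a-5p from -0.51 to -0.18. No ratio had an adjusted exact permutation p under 0.05 in 13 alternatives, the lowest being 0.0857. In each of them a ratio could not pass alone after adjustment over 3 ratios. The smallest exact permutation p is 0.0286 with 70 or 35 arrangements, and 0.125 with pairs. The number of names called by edgeR was 1, and with a library left out it ran from 0 to 1 (1 only without NPC replicate 1). It was 8 with no filter and 2 with the GC correction and replicate block. With the replicate block alone it was 0 (48 at an unadjusted p under 0.05), and with rows as deposited it was 0 (59 at such a p). The DESeq2 Wald test, run in place of edgeR, called 6 names. The replicate block changed no call of a member or of a ratio, where the smallest paired exact p is 0.125. Total count scaling moved the median of all names by -0.25. Against that median the members lay at 0.43 to 0.74 with total count scaling and at 0.29 to 0.59 with TMM factors. With the GC correction and NPC replicate 1 left out, the 0.023 of miR-196a-5p and miR-196c-5p lay below the median of all names, 0.069.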

Other observations

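A row named after an armadillo miR-196c-5p held the miR-196a sequence with the substitution G22C at its last base, counted from the 5′ end of miR-196a. It had 9, 7, 26 and 21 counts in NPPC replicates 1 to 4, and was listed at 0 in NPC replicates 1, 2 and 4 and at 8 counts in NPC replicate 3. In CPM, NPC replicate 3 stood at 13.5, inside the NPPC range of 6.90 to 20.6.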
